A study of Mus musculus with 2 samples.

Results

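The members described here were the protein-coding transcripts of mouse embryonic stem cells that consist of 1 exon, with no intron to splice, among them the mRNA of the pluripotency factor Sox2. They were taken as every exon entry whose transcript is protein-coding with exactly 1 exon in GENCODE M21 (GRCm38) and has no intron entry, leaving out the Hist histone cluster genes, the olfactory, vomeronasal and trace amine receptor families, chromosome Y, and Jun, Junb, Jund and Ier2. This gave 1254 transcripts of 1233 genes, out of 121429 transcripts with an exon value and 49490 protein-coding ones. Most histones were left out by name, but 25 members with histone variant names remained, such as H2afx and H1f0. A further 5 members belonged to genes that the annotation assigns to another type than protein-coding.

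Wild-type DTCM23/49 XY embryonic stem cells, depleted of feeder cells and grown on gelatin with serum and leukemia inhibitory factor, received 200 µM 4-thiouridine (4sU) for 10 min. 4sU is a uridine analog that cells build into the RNA they make, so that new RNA can be biotinylated and pulled out on streptavidin beads. The labeled library held the RNA eluted from the beads, and both libraries came from biological replicate 1. The second is called preexisting RNA in its description, and the protocol keeps the supernatant with the unlabeled RNA, but its title and RNA label call it total. It is named unlabeled here; if it held total RNA, each ratio would be one of new to all RNA, and these readings cannot be told apart. With 1 library per pool, no spread between replicates could be measured, no p-value is given, and every interval below covers only the number of transcripts.

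Genes without introns skip splicing altogether, so their nuclear precursor and mature mRNA have the same body and no intron signal marks the unspliced form. Some are old intronless genes, such as those of Sox and POU transcription factors, histones and many membrane receptors. Others are retrocopies, made when a processed mRNA was reverse transcribed and inserted elsewhere in the genome; a young retrocopy still repeats the sequence of its spliced parent, so short reads from either can match both.

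The stretches printed here show what separates the classes used below. Capitals mark the point of each comparison, all runs are 90 bases long, read 5′ to 3′ on the strand of the gene, and come from the GENCODE M21 transcripts (GRCm38). The first is the start of the coding sequence of Rps27rt, a copy of the ribosomal protein gene Rps27 at chr9:114982618-114982707 on the minus strand; the same bases in Rps27 are split between exons within chr3:90213218-90213615 on the minus strand, and the capitals are the bases on either side of that exon junction.
Rps27rt: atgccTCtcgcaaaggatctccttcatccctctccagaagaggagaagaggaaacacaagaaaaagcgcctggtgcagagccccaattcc
The whole coding sequence of Rps27rt, 252 bases, was identical to that of Rps27.
Mcts2 (chr2:152687361-152687450, plus strand) and its spliced relative Mcts1 (within chrX:38602008-38602591, plus strand, across an exon junction) are shown from base 91 of the coding sequence and differed at 11 bases, in capitals; this pair is an exception in the comparison of copies and partners.
Mcts2: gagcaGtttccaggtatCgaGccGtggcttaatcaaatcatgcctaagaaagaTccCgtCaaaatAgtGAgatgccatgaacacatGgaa
Mcts1: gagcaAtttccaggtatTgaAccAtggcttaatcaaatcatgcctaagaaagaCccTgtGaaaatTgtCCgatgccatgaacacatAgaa
Sox2 (chr3:34650549-34650638, plus strand) was set beside the intronless Sox21 (chr14:118235518-118235607, minus strand) at the stretch of their coding sequences with fewest differences, which were 6 and are in capitals.
Sox2: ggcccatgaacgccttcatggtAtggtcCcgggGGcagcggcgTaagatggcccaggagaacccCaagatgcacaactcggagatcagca
Sox21: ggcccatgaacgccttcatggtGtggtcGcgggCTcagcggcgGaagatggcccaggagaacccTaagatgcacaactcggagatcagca
Gm20594 (chr6:79818253-79818342, plus strand), a short nuclear gene model, and mt-Rnr2, the 16S ribosomal RNA of mitochondrial DNA (chrM:2072-2161, plus strand), differed at 3 bases, in capitals.
Gm20594: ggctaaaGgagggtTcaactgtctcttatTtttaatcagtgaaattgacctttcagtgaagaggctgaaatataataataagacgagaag
mt-Rnr2: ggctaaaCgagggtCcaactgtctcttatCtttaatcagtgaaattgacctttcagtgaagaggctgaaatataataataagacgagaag

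Accordingly, members were divided into 3 classes. A member was called intronless with own sequence when every annotated transcript of its gene has 1 exon and under 10% of its 50-base stretches occur exactly in transcripts of other genes; intronless with repeated sequence when at least 10% do; and an isoform of a spliced gene when another transcript of its gene has introns. Of the 1254 members, 656 fell in the first class, 326 in the second and 272 in the third.

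Most single-exon transcripts were low or silent in these cells. Of the 1254, 484 were listed at 0 in both libraries (38.6%, 95% Wilson interval 35.9 to 41.3), 573 had a value in both, 151 only in the labeled and 46 only in the unlabeled library. A mean of the 2 exon values above 10 in the deposited unit, equal to 1 TPM in the usual scale, with both values above 0, was reached by 253 members (20.2%, 18.05 to 22.5). The same was true of 22164 of 46910 coding transcripts with 2 or more exons (47.2%), which served as the reference. One gene model, Gm17332, exceeded the mean but was at 0 in the labeled and 269 in the unlabeled library. By class, 16.6% of the members with own sequence, 25.2% of those with repeated sequence and 22.8% of the isoforms passed.

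Many of the silent members belong to families known from differentiated tissues. Of 67 keratin-associated and cornified envelope transcripts, which build hair and the skin barrier, 57 were at 0 in both libraries, and none passed. Of 35 bitter taste receptors 30 were at 0. Of 17 interferons 8 and of 6 potassium channel subunits 3 were at 0, shares near the 38.6% of all members, and no member of these 3 families passed. The highest values in them were those of Krtap22-2 (1.44 labeled, 0 unlabeled), Tas2r108 (5.17 and 0), Ifna6 (1.72 and 0) and Kcna1 (0.35 and 0.56). The 25 protocadherins, adhesion molecules of neurons, and the 14 forkhead transcription factors also stayed below the filter, with Pcdhga1 highest among the former at 7.74 and 5.72. Foxd3, a forkhead factor of the early embryo, came nearest among the forkheads, at 7.09 in the labeled and 9.2 in the unlabeled library. Dnajb7 and Dnajc30, J-domain co-chaperones, were the only passing members among 9 Hsp70 and DnaJ transcripts, at 14.9 and 12.1 each. Of 62 G protein-coupled and Frizzled receptors 3 passed, and of 65 zinc finger, BTB and ring finger genes 10.

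The labeled cell type was checked by markers: all 12 embryonic stem cell markers had means above 10, from 40.1 (Klf2) to 6580 (Tdgf1) in the unlabeled library. Of the feeder or fibroblast markers 1 of 6 exceeded it (Thy1), of endoderm 0 of 6, of mesoderm 0 of 4 and of neural genes 3 of 5 (Pax6, Tubb3 and Map2). Col3a1, Postn, Gata6, Sox17, Foxa2, Afp and Kdr were at 0 in both libraries. Summed, the neural list reached 232 in the labeled and 360 in the unlabeled library, against 11658 and 15992 for the stem cell list, and its part in the values of the members was not tested. Exon entries took 84.6% of the labeled and 93.7% of the unlabeled total. The members took 1.39% and 3.08%, most of it Gm20594 alone.

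For each member past the filter, the log2 ratio of the labeled to the unlabeled exon value was taken, minus the median of the reference (-0.54); this difference is called the relative log2 ratio. A high value means a higher labeled to unlabeled ratio than that of a typical spliced coding transcript. It does not mean a high level in the newly made RNA. The 253 members had a median of 0.47 (order-statistic 95% interval 0.20 to 0.64) and an interquartile range of 1.93, against 1.26 in the reference. At least 2-fold above the reference stood 87 members (34.4%, 28.8 to 40.4), where 17.4% of all 22483 protein-coding transcripts past the filter did. At least 2-fold below stood 31 members (12.3%, 8.77 to 16.9), where 10.5% of all did. A member low in 1 library passed the filter only if the other was high; among the 207 members above 10 in each library the median was 0.45, with 31.4% high and 11.1% low.

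**Figure D1:**
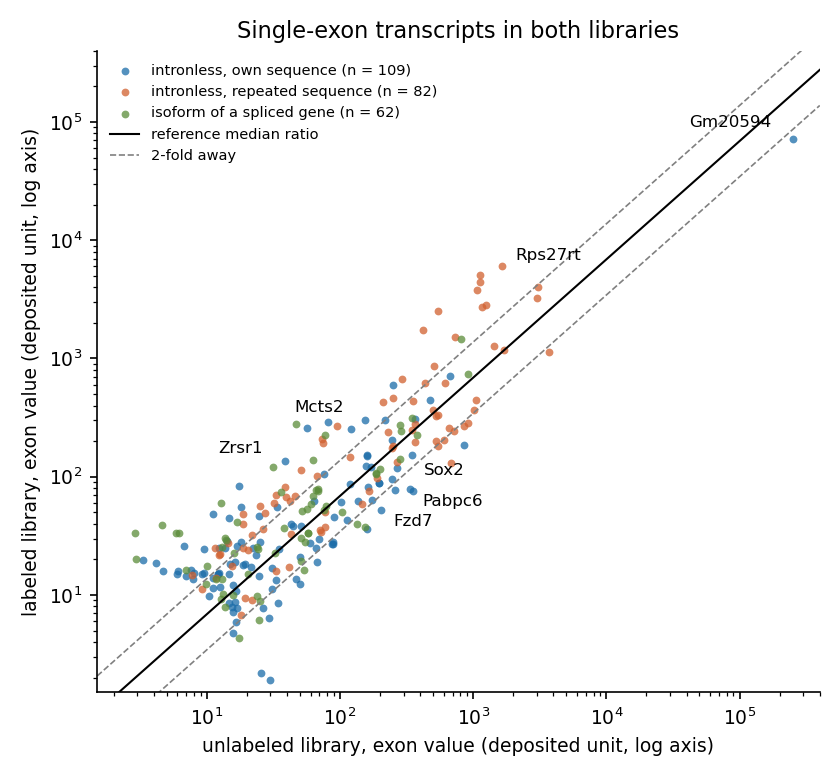
Exon values of the 253 single-exon transcripts past the filter in the unlabeled (x axis) and labeled (y axis) library, both in the deposited unit on log axes; each point is 1 transcript, colored by class, the solid line is the reference median ratio and the dashed lines lie 2-fold away. Rps27rt (6012 labeled, 1658 unlabeled) lies above the upper dashed line, Sox2 (154 and 345) between the lines, and Pabpc6 (78.2 and 336) below the lower one.

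Medians differed in size among the classes, with overlapping intervals. Members with own sequence had a median of 0.31 (-0.20 to 0.58, n = 109), with 33 high and 19 low. Among them, 83 genes with established names had a median of 0.18 (-0.36 to 0.46), with 19 high (22.9%) and 13 low (15.7%). The 26 predicted gene models had a median of 1.24, with 14 high and 6 low. Their extremes were Gm26566 at 1.91 labeled and 29.6 unlabeled (-3.42) and A730071L15Rik at 22.3 and 1.23 (4.72). Both passed the filter through 1 library only, as did other models and some named genes, which pushes such ratios outward. The median of the models above 10 in each library is not given here. Members with repeated sequence had a median of 0.80 (0.09 to 1.12, n = 82), with 35 high and 7 low, and isoforms of spliced genes 0.51 (0.06 to 0.73, n = 62), with 19 high and 5 low. For named genes with own sequence, the interval of the median thus included the reference.

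**Figure D2:**
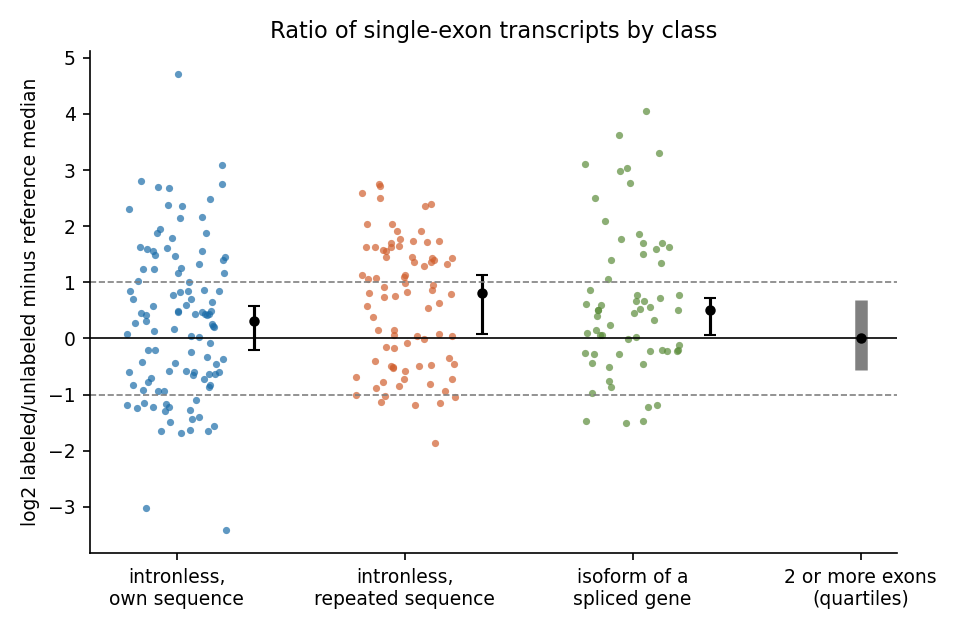
Relative log2 ratio (log2 labeled to unlabeled minus the reference median) of each member past the filter by class, with points spread sideways for display; the black dot and bar beside each class are its median and 95% order-statistic interval, and the grey bar is the interquartile range of coding transcripts with 2 or more exons. The medians were 0.31, 0.80 and 0.51, and all classes reached both dashed lines, which mark 2-fold.

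Sox2, a transcription factor that maintains pluripotency together with Oct4 (Pou5f1), was the best expressed single-exon Sox gene. Its mRNA (ENSMUST00000099151, chr3:34650405-34652461, plus strand, 2057 bases) stood at 154 in the labeled and 345 in the unlabeled library, a relative log2 ratio of -0.63. Its ratio was thus below that of a typical spliced transcript, by less than 2-fold, although its labeled value was above the reference median of 38.3. Sox2 ranked 200 of 253 members by ratio and lay at the 22.7th percentile of all coding transcripts past the filter. By mean value it was the eighth highest of the 109 members with own sequence. Sox2 lies in an intron of the long noncoding gene Sox2ot on the same strand. The best expressed Sox2ot transcript had exon values of 28.1 in the labeled and 6.98 in the unlabeled library, a relative log2 ratio of 2.54, and the highest Sox2ot intron entry stood at 36.0 and 6.33. Host and nested gene therefore lay on opposite sides of the reference, although reads of the Sox2ot intron and of Sox2 itself cannot be told apart over the Sox2 exon.

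The other intronless developmental factors were far lower than Sox2. Sox11 stood at 24.5 labeled and 35.1 unlabeled (relative log2 ratio 0.02), Sox21 at 11.3 and 31.0 (-0.92), and Sox4 at 8.64 and 33.95 (-1.44), all factors known from neural or progenitor tissues. Sox12, whose gene also has spliced transcripts, stood at 13.6 and 13.1 (0.60). Of 8 single-exon Sox transcripts these 5 passed, 1 of them 2-fold below the reference and none 2-fold above. Sox1 and Sox3, the closest relatives of Sox2, stayed at 0.76 and 0.18 in the labeled library and at 1.56 and 2.19 in the unlabeled one, and Sox14 was at 0 in both. Among 5 POU factors, Pou3f1 (Oct6), which rises as cells leave the naive state, passed at 8.79 and 16.4 (-0.36), whereas Pou5f2, Pou3f2, Pou3f3 and Pou3f4 did not. Olig1, a basic helix-loop-helix factor of oligodendrocytes, stood at 15.0 and 14.6 (0.58), and the single-exon Id1 transcript, an inhibitor of such factors, at 16.3 and 6.98 (1.76). Of 12 members of that family 2 passed. Sox4, Pou3f1 and Id1 were under 10 in 1 library and passed the filter only through the other, which pushes their ratios outward.

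**Figure D3:**
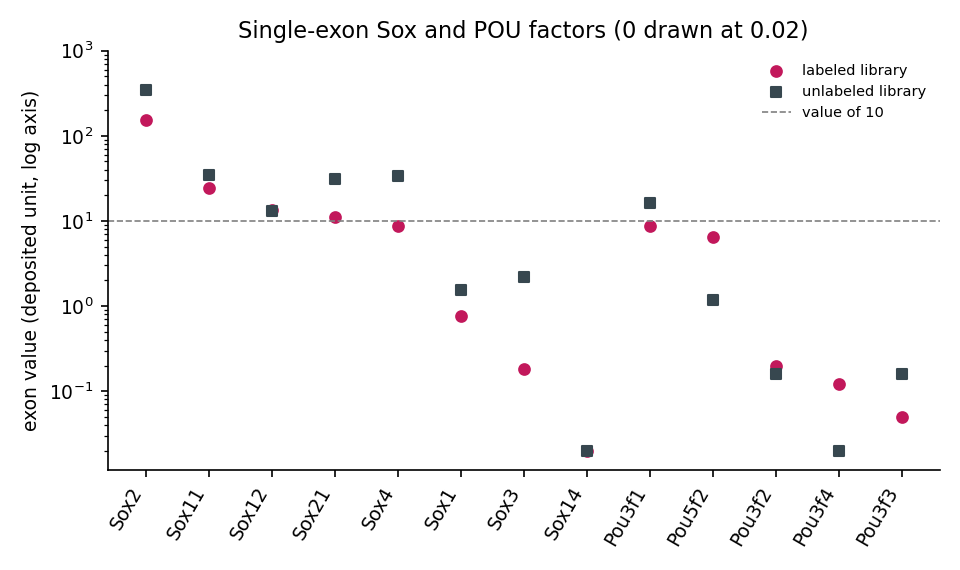
Exon values (deposited unit, log axis) of the 8 single-exon Sox and 5 POU transcripts in the labeled library (circles) and the unlabeled library (squares), with values of 0 drawn at 0.02 and a dashed line at 10. Sox2 (154 and 345) stands above all others in both libraries, and Sox14 is at 0 in both.

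The 83 named genes with own sequence were also grouped by what their proteins do, in lists drawn up after their values were seen. The counts are to be read against the 17.4% high and 10.5% low of all coding transcripts. The listed genes of the ribosome, transfer RNA and translation lay above the reference. All 10 had positive relative log2 ratios, from 0.26 to 2.14 with a median of 1.10. Of these, 5 were 2-fold or more above the reference and none 2-fold below. As the list was drawn up with values known, this describes the listed genes and not the role. Imp3, a component of the small subunit processome, stood at 55.0 labeled and 18.2 unlabeled (2.14), and Utp3, another nucleolar processing factor, at 445 and 476 (0.44). Rrs1, required for assembly of the large ribosomal subunit, stood at 61.9 and 64.2 (0.49), and Rpp25, a subunit of ribonuclease P, at 204 and 247 (0.26). These genes were short, with a median length of 1629 bases.

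Genes of mRNA binding, splicing and 3′ end formation split. Of 14, 4 were 2-fold high and 4 were 2-fold low, with a median of -0.55. Sf3b5, a small subunit of the SF3b splicing complex, stood at 25.8 labeled and 6.74 unlabeled (2.48), Zrsr1, related to splicing factor U2AF, at 135 and 38.4 (2.35), and Nanos1, an RNA-binding repressor known from germ cells, at 45.0 and 14.6 (2.16). Sf3b5 passed the filter only through the labeled library, so its ratio had to be high. Rnf113a2, a ring finger protein related to a spliceosome component, lay near the reference at 86.7 and 119 (0.08). At the other end were abundant mRNA-binding proteins. Pabpc2 and Pabpc6, poly(A)-binding proteins, stood at 75.8 and 352 (-1.68) and at 78.2 and 336 (-1.56). Purb, a purine-rich element binding protein, stood at 77.2 and 260 (-1.21), Zcchc3, a zinc finger nucleic acid binding protein, at 63.3 and 175 (-0.93), Pcbp1, which binds poly(C), at 95.5 and 245 (-0.82), and Hnrnpa0 at 118 and 269 (-0.65). All of these 6 had at least 2 times the value in the unlabeled library, but only Pabpc2, Pabpc6 and Purb were 2-fold below the reference.

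Membrane, signaling and small GTPase genes had a median of -0.43, with 2 of 12 high, near the share of all coding transcripts, and 4 low. Fzd7, a Wnt receptor, stood at 52.6 labeled and 202 unlabeled (-1.41), and its relative Fzd2 at 7.98 and 15.5 (-0.42). Rhob, a small GTPase known as an early response gene, stood at 12.3 and 49.6 (-1.48) and Tmem30b, a subunit of lipid flippases, at 6.39 and 29.2 (-1.66). Against these, Lpar6, a lysophosphatidic acid receptor lying within Rb1 on the opposite strand, stood at 28.6 and 14.1 (1.56), and claudin Cldn20 at 15.0 and 5.94 (1.87). Both lie inside spliced genes, whose highest intron entries stood at 55.4 and 23.8 (Rb1) and at 24.6 and 7.45 (Tfb1m). Cldn4 stood at 10.8 and 16.6 (-0.08). Arl4c, a small GTPase gene that also has spliced transcripts and is not one of the 12, stood at 9.77 and 23.8 (-0.75). Fzd2, Tmem30b, Cldn20 and Arl4c were under 10 in 1 library and passed the filter only through the other, which pushes their ratios outward.

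Genes of transcription and chromatin had a median of -0.20, with 2 of 17 high and 3 low, both near the shares of all coding transcripts. H2afx, the histone variant phosphorylated at DNA breaks, stood at 152 and 158 (0.48) and the linker histone H1f0 at 27.4 and 59.3 (-0.57); Zfp830 stood at 123 and 156 (0.20). Of the 25 members named as histone variants 3 passed, H2afx, H1f0 and the H2afj transcript at 68.1 and 62.5 (0.66), and none was 2-fold away. Among 7 ubiquitin and protein turnover genes 1 was high and 2 low, the latter including Klhl9, an adaptor of cullin ligases, at 35.9 and 161 (-1.62). The 9 metabolic and redox enzymes had a median of 0.05, with 1 high and none low.

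Outside these roles, the X-linked Fthl17 genes, ferritin heavy chain relatives known from early embryos and germ cells, were above the reference. Fthl17c stood at 35.9 labeled and 26.3 unlabeled (0.98), Fthl17b at 32.3 and 21.9 (1.10) and Fthl17e at 23.9 and 20.4 (0.76). These 3 count as repeated sequence, so reads may be shared with other genes and their like values may not be separate observations. Of 18 members grouped as Mage and other X-linked families, some of them on other chromosomes, 5 passed. Among the 5, 3 were 2-fold high and none low, where 17.4% of all coding transcripts were high. Atf7, the only passing one of 6 bZIP transcripts, was at the reference with 22.8 and 32.5 (0.02).

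Copies of spliced genes mostly had ratios close to those of their spliced counterparts. Coding sequences of intronless members past the filter were aligned to that of the spliced gene sharing most 25-base stretches; 67 aligned over at least 80% of their length at 70% identity or more, with a partner past the filter that did not overlap them. The values of a partner are those of its spliced coding transcript with the highest mean, not of the whole gene. Across these 67, the relative log2 ratios of the copies ran from -1.85 to 3.09. The difference between copy and partner had a median size of 0.18 and was at most 0.5 in 55 of 67, where the ratios of the reference spread over an interquartile range of 1.26. Spearman's correlation was 0.85 across the 67 pairs, given as a description. Both members of a pair come from the same libraries, and reads may be shared between them. Some partner values also entered more than once, so the pairs were not all separate. Cdc5l was the partner of Gm9040, Gm9044, Gm9048 and Gm9049, and Pabpc1 and Aldoa each had more than 1 copy.

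Ribosomal protein copies made up the high end. Rps12-ps3 stood at 5096 labeled and 1131 unlabeled (relative log2 ratio 2.71) and spliced Rps12 at 5535 and 1345 (2.58). Rps27rt stood at 6012 and 1658 (2.40) beside Rps27 at 5838 and 1485 (2.51), and Rpl36a-ps1 at 3763 and 1060 (2.37) beside Rpl36a at 3668 and 1133 (2.23). In these pairs the levels were close too, but not in all: Gm2000 stood at 2539 and 546 (2.75) beside Rpl35 at 960 and 202 (2.78), and Gm6133 at 56.8 and 24.97 (1.72) beside Rpl17 at 3779 and 1280 (2.10). Rpl9-ps6 stood at 2716 and 1160 (1.76), beside Rpl9 at 2956 and 1318 (1.70). Rpl10-ps3 and Rpl10, of the same ribosome, had lower ratios, but again like each other: 3229 and 3018 (0.63) and 3463 and 3375 (0.57). Of the 12 members with repeated sequence whose counterpart is a ribosomal protein gene, 11 were 2-fold or more above the reference (median 1.75). The other 70 had a median of 0.45 with 24 high (34.3%) and 7 low (10%), beside 17.4% and 10.5% of all coding transcripts.

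At the low end stood copies of other genes. Gm10031, a copy of the casein kinase gene Csnk2a1, stood at 131 labeled and 685 unlabeled (-1.85) and Csnk2a1 at 117 and 544 (-1.68). A Hmga1b transcript, a copy of the chromatin protein gene Hmga1, stood at 448 and 1040 (-0.68), beside Hmga1 at 517 and 1250 (-0.74); a second, 120-base Hmga1b transcript stood at 1125 and 3734 (-1.19). Tpm3-rs7, a copy of tropomyosin Tpm3, stood at 367 and 1014 (-0.93), beside 322 and 1127 (-1.27). Other named copies lay between, such as Psme2b (208 and 73.3, 2.05) beside the proteasome activator Psme2 (236 and 101, 1.76) and Amd2 (198 and 364, -0.34), a copy of the polyamine enzyme gene Amd1. Sap18b, which aligned to Sap18 over less of its length and was not counted among the 67, stood at 193 and 74.3 (1.91) beside 233 and 83.2 (2.02).

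Diverged copies and relatives, with under 10% of their 50-base stretches repeated elsewhere, were often close to their partners as well. Of 23 such pairs, not all of them retrocopies, with coding identities of 73.6% to 95.6%, 16 differed by at most 0.5. Pabpc6, 81.6% identical to Pabpc1 and with no exact 50-base stretch in common with another gene, had -1.56 beside -1.48 in Pabpc1 (1454 and 5894). Rasl2-9, 94.6% identical to the nuclear transport GTPase Ran, stood at 717 and 666 (0.64) and Ran at 797 and 652 (0.83). Aldoart1 and Aldoart2, aldolase retrogenes known from sperm, stood at 305 and 367 (0.27) and at 122 and 171 (0.05), beside Aldoa at 503 and 679 (0.10). G6pd2 stood at 62.2 and 136 (-0.59) beside G6pdx, the first enzyme of the pentose phosphate pathway, at 89.0 and 188 (-0.54), and Csl at 88.5 and 195 (-0.60) beside citrate synthase Cs at 256 and 628 (-0.76). How many of the reads behind a copy came from its partner was not tested.

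The other 12 pairs differed by more than 0.5. Mcts2, an imprinted retrogene 85.5% identical to Mcts1, stood at 300 labeled and 155 unlabeled (1.49). The best expressed spliced coding transcript of Mcts1 stood at 38.6 and 50.1 (0.16), below Mcts2 in both libraries. Other Mcts1 transcripts were not added to this value. Vma21-ps stood at 17.6 and 15.4 (0.73) beside Vma21 at 12.5 and 38.3 (-1.07). The largest gaps belonged to members with an unlabeled value under 10, which passed the filter only through the labeled library, so their ratios had to be high. These were Gm12117, a partial Gapdh copy inside Ranbp17, at 19.6 and 3.34 (3.09) beside a Gapdh ratio of -0.06, with a host intron at 54.2 and 13.3, and Gm11983, 83.3% identical to Hsp90ab1, at 16.03 and 6.04 (1.95) beside -0.47. H2afx and the spliced H2afj, related histone genes and no retrocopy pair, had 0.48 and 1.99.

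**Figure D4:**
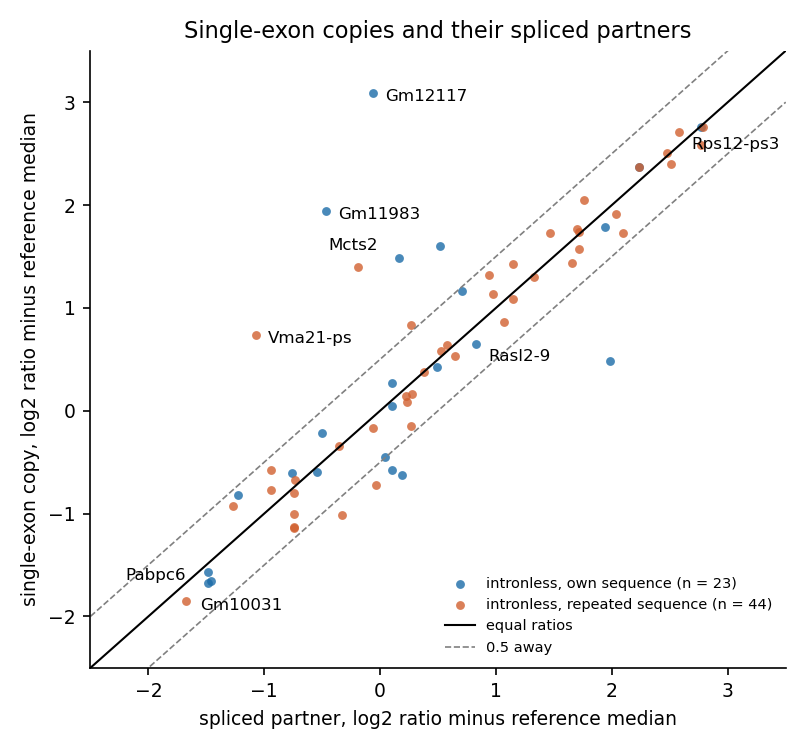
Relative log2 ratio of 67 single-exon copies (y axis) against their spliced partners (x axis), colored by class; the solid line marks equal ratios and the dashed lines a difference of 0.5. Of the copies 55 lie between the dashed lines, among them Gm10031 (-1.85) and Rps12-ps3 (2.71), and Mcts2, Vma21-ps, Gm11983 and Gm12117 lie above them.

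Some members could not be told apart from each other at all. Among those past the filter, Gm13691, Gm13693, Gm13694, Gm13696, Gm13697 and Gm13698 have identical transcripts of 2493 bases, and their labeled values ran from 33.7 to 142 with relative log2 ratios from -0.50 to -0.22. Gm9040 and Gm9044, identical over 2409 bases, stood at 268 and 282 in the labeled and 855 and 906 in the unlabeled library. The split of a value between identical transcripts rests on the quantification and not on the sequence.

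Gene models with repeated sequence were also among the highest, Gm2174 at 4401 labeled and 1126 unlabeled (2.503) and Gm6793 at 4001 and 3065 (0.92). Gm20594 was the most abundant member by far, at 71133 in the labeled and 253463 in the unlabeled library, 0.71% and 2.53% of the 2 totals, with a relative log2 ratio of -1.30; by its exact 50-base stretches it counted as own sequence. Its likeness to mitochondrial ribosomal RNA is visible in the stretch printed above. No exon entry on mitochondrial DNA was among those analysed here, so this value could not be set beside that of mt-Rnr2, and the planned median of mitochondrially encoded genes gave no value.

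Imprinted single-exon genes, expressed from 1 parental copy, were looked at as an incomplete list of 7 chosen with their values known. Mcts2 (300 and 155, 1.49), which lies in an intron of H13 on the same strand, Zrsr1 (135 and 38.4, 2.35), which lies within Commd1 on the opposite strand, and Mkrn3 (17.8 and 18.5, 0.48) passed the filter. The others on the list, Ndn, Nap1l5, Peg12 and Magel2, had labeled values between 1.43 and 10.3 and did not pass. Usp29, an imprinted gene missing from the list, passed at 15.05 and 20.4, near the reference (0.10).

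Of the 109 members with own sequence past the filter, 32 lay within the span of a spliced gene. Reads of host introns may count for them, on the opposite strand only if counting ignored strand, which is not given. Intron entries had a median relative log2 ratio of 2.53 (n = 13802). The 32 nested members had a median of 0.26, with 10 high (31.3%) and 8 low (25%). The 77 outside spliced genes had 0.31, with 23 high (29.9%) and 11 low (14.3%). Of all coding transcripts past the filter, 17.4% were high and 10.5% low. On the strand of the host, 4 of 11 were high and 1 low, and on the opposite strand 6 of 21 were high and 7 low. B130006D01Rik, inside Zfp652 on the same strand, was near its host intron, at 48.7 labeled and 11.1 unlabeled beside 38.6 and 9.15. Mcts2 was well above its host intron at 33.7 and 7.19, and Cstf2t, a testis variant of a cleavage factor inside Prkg1, stood at 28.3 and 88.1 (-1.10) where the host intron had 2.52 and 1.26.

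Single-exon isoforms were set beside the spliced mRNA of the same gene. For 42 of the 62 isoforms, a spliced coding transcript of the gene also passed the filter, and the difference in relative log2 ratio was at most 0.5 in 29 and at least 1 in favor of the isoform in 5. Of the 42, 30 lay at least 50% within exons of the gene's spliced transcripts of any type. Overlap with the compared transcript itself was not measured. Reads may be shared between both, so like values may be partly built in. Of these 30, 21 differed by at most 0.5. Of the other 12, 8 did, among them Gm13693, Gm13694, Gm13696, Gm13697 and Gm13698, which repeat each other. Hnrnpf stood at 743 and 918 (0.23) beside its spliced form at 774 and 1019 (0.14), Rpl36al at 1465 and 804 (1.40) beside 3657 and 2007 (1.40), and Ap1g1, a subunit of a clathrin adaptor, at 39.5 and 134 (-1.22) beside 94.9 and 336 (-1.29). These 5 had a higher labeled to unlabeled ratio than the spliced form, though not always a higher labeled value. Gtpbp10 stood at 33.3 and 2.9 (4.06) where its spliced transcript had 132 and 285 (-0.57), and Wnk1, a kinase gene, at 139 and 62.1 (1.70) where it had 258 and 936 (-1.32). Trmt13, at 20.0 and 2.93 (3.31) beside 31.2 and 23.4 (0.95), and Tceanc, at 41.8 and 16.8 (1.85) beside 19.4 and 24.95 (0.18), were also among them. Gtpbp10 and Trmt13 were under 10 in the unlabeled library and passed the filter only through the labeled one, so their ratios had to be high. Of the 42, H2afj, at 0.66 beside 1.99, was the only one 2-fold lower. Elobl, a relative of the transcription factor elongin B, had the highest ratio among members with a mean of at least 100 that are not Gm or Rik models, at 280 and 46.9 (3.11) beside 143 and 36.4 (2.51). The part of unspliced precursor in these values was not tested.

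Ratio and length went together. Members up to 500 bases had a median relative log2 ratio of 0.73 (n = 41), those of 500 to 1000 bases 1.44 (n = 36), of 1000 to 2000 bases 0.71 (n = 79), of 2000 to 4000 bases -0.27 (n = 72), and longer ones -0.44 (n = 25). In the reference the medians were 0.30, 0.31, 0.40, -0.09 and -0.38. Spearman's correlation of ratio and length was -0.32 across the 253 members and -0.28 across the 22164 reference transcripts, and that with the percentage of U was -0.04 and -0.05. The members were shorter, with a median of 1591 against 2176 bases. When the reference was limited to lengths within the members' quartiles, the median of the members fell from 0.47 to 0.18, with 29.2% high and 19.4% low. All 253 members were kept, so this shifts the reference and is not a match by length. In the length groups above, the members exceeded the reference up to 2000 bases and lay below it beyond.

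**Figure D5:**
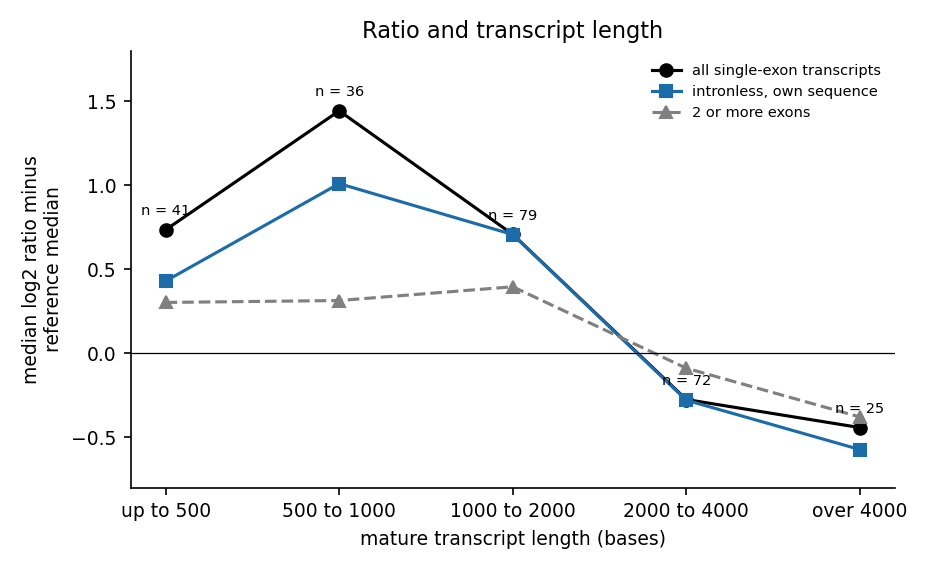
Median relative log2 ratio by mature transcript length in bases, for all single-exon members past the filter (circles, with their number), the members with own sequence (squares) and coding transcripts with 2 or more exons (triangles). All 3 lines are above 0 up to 2000 bases and below 0 beyond, and the members exceed the reference most at 500 to 1000 bases (1.44 against 0.31).

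The end of the mRNA behind the stop codon differed along the same axis. Of the named genes with own sequence, 76 have at least 100 annotated bases there, and the pentamer ATTTA, the core of AU-rich elements that bind decay factors, was counted in it. It was present in all 13 genes 2-fold or more below the reference, with a median of 2.13 per kb. Among the 48 in between, 12 lacked it (median 1.77 per kb), and among the 15 genes 2-fold or more above, 6 lacked it (1.09 per kb). The tails were also longest in the low genes, with a median of 1857 bases against 672 in the high ones, and a longer tail holds the pentamer more often. Spearman's correlation with the ratio was -0.25 for the density and -0.32 for tail length (n = 76). Purb has 18 of these pentamers and Fzd7 and Pabpc6 have 3 each, while Sox2 has 4 in 1086 bases. Pentamers in this count are letters in the annotation and were not checked for any bound factor.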

How the data were processed

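Per the labels and the study's methods, the authors removed ribosomal RNA reads, aligned the rest with STAR (2.5.0 in the submitters' processing notes) to exon and intron sequences of Ensembl 91 (GRCm38), and estimated expression with RSEM, which divides reads that match several transcripts among them. The deposited values are called TPM but add up per column to 10-fold what TPM would, so they were treated as a score of which 10 equal 1 TPM; read depth is unknown, and whether counting used strand is not given in the sources used here, so overlapping genes on either strand may share reads. Of the exon entries, 90.9% matched GENCODE M21 (110366 of 121429); the rest were not used here.

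Ratios, shares (Wilson) and medians (binomial order statistics, 95%) were computed in Python 3.11.15 with pandas 2.3.3 and scipy 1.17.1, without a pseudocount and without any test. Repeated sequence was measured as exact 50-base stretches, partners by shared 25-base stretches, and coding sequences were aligned locally with biotite 1.4.0 (match 2, mismatch -3, gap -5). Ratio and alignment code was tested on simulated data. The members, families and lists were chosen with earlier results of these data known. Genes were named by rule: Sox2, the 10 highest and 10 lowest by ratio and 10 highest by mean among members with a mean of at least 100 that are not Gm or Rik models, and the 3 with the highest mean in each family (those below the filter were not all named); all others, the 3 classes, the role lists and the alignment limits were chosen after values were seen. Alternatives changed the filter, pseudocount, reference, members and leakage between pools.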

Additional observations from a re-analysis of the deposited data

How the results depend on the processing

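No paired analysis was possible because each pool has 1 library and no test was made; for the same reason no replicate could be left out. The median relative log2 ratio of the members stayed positive under all 16 alternatives. It left its interval in 1, the reference limited to the members' length quartiles (0.18). The share of members past the filter moved with the filter: 39.0% for a mean above 1, 7.10% above 100, 16.5% above 10 in each library and 45.7% for both values above 0. Among alternatives chosen after seeing the data, it was 16.6% for own sequence, 16.01% and 16.8% with repeat limits of 5% and 25%, and 15.5% outside spliced genes. The share 2-fold high was 26.8% with the repeat limit of 5%. The share 2-fold low was 6.74% for a mean above 100 and 19.4% with the reference limited by length. It was 17.4% for own sequence and 19.6% with the repeat limit of 5%. Sox2 stayed below the reference, at -0.78 (mean above 1), -0.35 (above 100), -0.63 (pseudocount of 1, or all coding transcripts as reference) and -0.77 (a leakage of 0.1 of the unlabeled value subtracted). Leaving out mitochondrial genes changed nothing, as none were present, and the alternatives for them gave no value. Read depth is unknown, so the precision of single low values is too.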
